A study of Mus musculus with 6 samples.

Results

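Immediate early transcription factor genes were compared in the fasted mouse liver with and without Acss2. The rule named 10 genes by symbol (Fos, Fosb, Fosl2, Jun, Junb, Jund, Egr1, Ier2, Ier3 and Myc), and 9 of the 12366 genes in the table match it. Fosb was not analysed here. Liver RNA came from male C57BL/6 mice on a chow diet, aged 22 weeks and fasted for 48 h, either wild type (WT) or Acss2-/- (Acss2-KO), with 3 libraries per genotype, written WT-1 to WT-3 and KO-1 to KO-3 after their replicate numbers. Acss2 encodes an enzyme that makes acetyl-CoA from acetate in the cytosol and nucleus. Both genotypes were fasted, so no fed state enters any comparison. No label says which animal gave which library. The tests therefore rest on the spread among libraries, which may in part be technical. The labels also do not describe how the Acss2 allele was made.

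Immediate early genes are transcribed within minutes of a growth factor, cytokine or stress signal, from factors already present in the cell and without new protein synthesis. Their messages and proteins are short-lived, so a level in tissue is a snapshot. FOS-family and JUN-family proteins pair through leucine zippers to form the AP-1 factor. EGR1 is a zinc finger activator, MYC pairs with MAX to drive growth and ribosome production genes, and IER2 and IER3 are small nuclear or membrane-associated response proteins. In liver these genes are known for their rapid induction after partial hepatectomy.

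The members did not move as 1 block. Myc, Fosl2 and Jund rose in Acss2-KO, and Ier3 was clearly above the floor of the table in the Acss2-KO libraries and at or next to it in WT. Fos, Jun, Junb, Egr1 and Ier2 did not pass the test. Of the 8 members tested, 3 were higher and none lower, by limma on log2(CPM + 1) with an adjusted p threshold of 0.05. The count of 3 became 0 without WT-2 and 1 without KO-1 or KO-3. CPM is the usual depth-scaled read count, in which the reads of a gene are divided by the total of its library. Over all 9355 genes tested, 13.4% were higher, 23.1% lower and 36.5% changed in either direction. Other scalings gave 1659 to 1803 higher and 1615 to 1796 lower genes in place of 1252 and 2161, and called the same 3 members. The members' share changed in either direction was 37.5%, near that of all genes, and their median log2 fold change was 0.26 against -0.12 for all tested genes. The genotypes did not overlap for 3 of the 8 members, all higher in Acss2-KO, against 20.1% of all tested genes in that direction, 32.8% in the other and 52.9% in both.

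**Figure D1:**
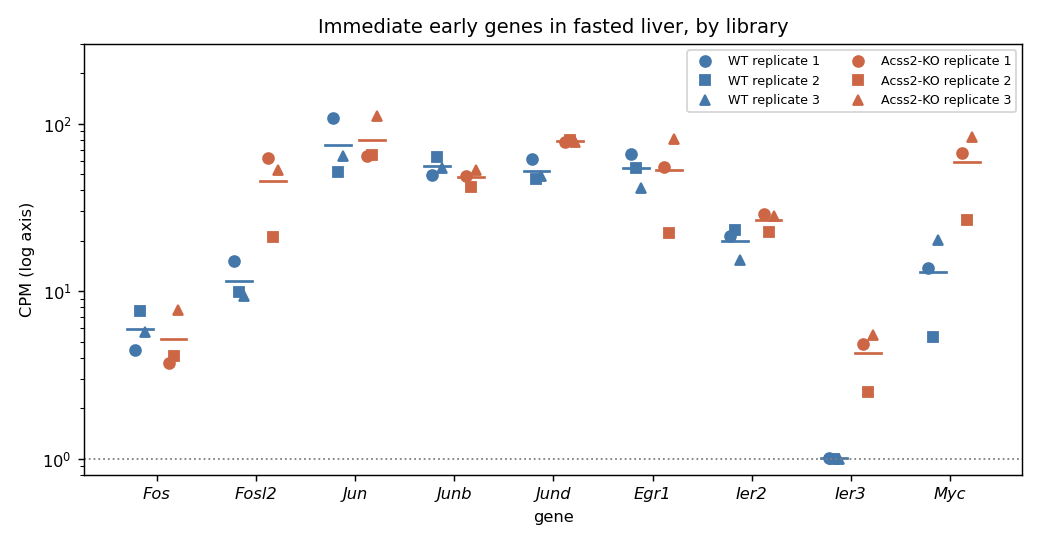
CPM of the 9 measured members in each library on a log axis, with WT in blue and Acss2-KO in orange, replicate numbers by symbol and group means as bars. The dotted line is the floor of 1 CPM, at or next to which all 3 WT values of Ier3 lie, and the genotypes are apart for Fosl2, Jund, Ier3 and Myc.

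Estimated depth was 21.8 to 30.8 M reads per library, so 5 CPM stands for 109 to 154 reads. Acss2 itself was at 73.5 to 81.0 CPM in WT and 1.37 to 3.56 CPM in Acss2-KO, which matches the labels in each library. Hepatocyte markers summed to 90462 to 111250 CPM in WT and 100614 to 111578 CPM in Acss2-KO, with 1 of 8 higher (Tat, 1108 to 3783 CPM) and 1 lower (Ttr, 4260 to 1260 CPM), both singled out after their values were seen. Tat lost its call without WT-2, WT-3 or KO-3 and with WT-2 and KO-1 both left out (limma adjusted p = 0.066 to 0.070). The most abundant, Alb, was at 69738 CPM in WT and 79085 CPM in Acss2-KO. KO-2 lay nearest to WT on the leading principal component (16.95, against 44.0 and 62.4 for the other Acss2-KO libraries and -45.6 to -38.0 for WT). It was the lowest of the 3 Acss2-KO libraries for 6 of the 9 members, for 44.1% of all 9355 tested genes and for 84.7% of the 1252 genes called higher. Among other cell types, summed macrophage and erythroid markers were lower in Acss2-KO without overlap, and summed endothelial and stellate markers overlapped. Beside the counts that follow, 13.4% of all tested genes were higher and 23.1% lower. Macrophage markers, Kupffer cell genes among them, fell in 4 of 11 cases and rose in none, with a summed level of 264 to 771 CPM in WT and 146 to 232 CPM in Acss2-KO. The most abundant of them were highest in WT-2. Cd5l was at 46.9, 152 and 68.6 CPM in WT-1, WT-2 and WT-3, and Clec4f at 52.3, 128 and 74.5 CPM. All 5 erythroid genes were lower (162 to 280 CPM against 41.2 to 67.0 CPM summed). Sinusoidal endothelial markers summed to 309 to 451 and 346 to 440 CPM, with 1 of 9 higher and 2 lower. Stellate cell and fibroblast markers summed to 247 to 398 and 213 to 371 CPM, with 2 of 8 lower. The deposited genes held 5 of 9 neutrophil and other leukocyte markers, 1 of them tested and lower, and 2 of 5 cholangiocyte markers. No marker among the deposited genes was listed at 0 in all libraries. The part of these cells in the members' levels was not tested. In bulk tissue, fewer cells of a type and less RNA per cell cannot be told apart.

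The FOS family supplies the partner that cannot bind DNA alone, and its members differ in stability and activating strength. Fosl2 (ENSMUSG00000029135, chr5:32135801-32157842) encodes FRA2, a FOS relative without the strong activation domain of FOS. It reached 15.2, 9.92 and 9.32 CPM in wild type, against 62.7, 20.97 and 52.7 CPM in Acss2-KO replicates 1, 2 and 3. Each Acss2-KO library lay above each WT library, and replicate 2 was the closest to WT. Means were 11.5 ± 3.26 and 45.5 ± 21.8 CPM (SD, n = 3 each). On the log2(CPM + 1) scale of the test, the rise was 3.45-fold (log2 fold change 1.79, SE 0.40, limma adjusted p = 0.012). The call was lost without WT-2 (limma adjusted p = 0.052) or WT-3 (0.0503), and with WT-2 and KO-1 both left out (0.072).

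Fos (ENSMUSG00000021250, chr12:85473890-85477273), the founding member, was low in both genotypes. It reached 4.47, 7.57 and 5.70 CPM in wild type, against 3.73, 4.08 and 7.67 CPM in Acss2-KO, which is 105 to 233 reads. The genotypes overlapped, with the highest value in KO-3. The log2 fold change was -0.20 (SE 0.28, limma adjusted p = 0.60), with a 95% confidence interval of -0.83 to 0.43. A change as large as that of Fosl2 lies outside this interval.

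Promoter sequences are shown for Fosl2, Ier3, Fos and Jun. Fosl2 was called higher in Acss2-KO, and Fos and Jun did not pass the test. Ier3 had no test in the main analysis, and its Acss2-KO values all lay above WT. The sequences are the 250 bases before the RefSeq start site (GRCm38.p6), available for 7 of the 10 named members. Capitals mark matches on either strand to TGACTCA (the AP-1 site), TGACGT (the core of the cAMP response element), TGACATCA (the AP-1-like site of the Jun promoter), TATAAA (the TATA box) or the CArG box bound by SRF. No match overlapped another.
Fosl2: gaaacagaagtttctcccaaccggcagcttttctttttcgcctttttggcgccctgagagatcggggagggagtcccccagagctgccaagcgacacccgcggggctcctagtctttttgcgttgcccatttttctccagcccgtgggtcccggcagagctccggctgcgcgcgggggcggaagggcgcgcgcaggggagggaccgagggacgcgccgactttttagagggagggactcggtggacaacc
Ier3: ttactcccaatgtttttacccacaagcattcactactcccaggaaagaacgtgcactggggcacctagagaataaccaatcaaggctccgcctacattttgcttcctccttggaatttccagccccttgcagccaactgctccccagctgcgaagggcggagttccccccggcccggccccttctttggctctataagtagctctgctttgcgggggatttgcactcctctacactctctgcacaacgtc
Fos: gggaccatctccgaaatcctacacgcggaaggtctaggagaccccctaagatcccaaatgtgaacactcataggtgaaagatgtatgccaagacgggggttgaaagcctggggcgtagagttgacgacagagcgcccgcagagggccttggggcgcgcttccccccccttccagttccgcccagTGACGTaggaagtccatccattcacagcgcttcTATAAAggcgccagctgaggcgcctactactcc
Jun: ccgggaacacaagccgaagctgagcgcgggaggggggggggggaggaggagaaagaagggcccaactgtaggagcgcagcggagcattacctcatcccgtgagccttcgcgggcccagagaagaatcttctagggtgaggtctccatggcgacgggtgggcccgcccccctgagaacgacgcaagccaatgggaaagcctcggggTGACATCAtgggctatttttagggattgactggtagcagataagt

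The windows are chr5:32136222-32136471 (+), chr17:35821463-35821712 (+), chr12:85473640-85473889 (+) and chr4:95052223-95052472 (-), in that order. The Fos window holds TGACGT at bases -66 to -61 and TATAAA at -33 to -28, counted from the start site, and the Jun window holds TGACATCA at -45 to -38. None of the searched letters is in the Fosl2 or Ier3 window, nor in those of Fosb, Jund and Junb. Of 32851 promoter windows of this length, 6.47% hold TGACGT, 12.4% TATAAA, 2.93% TGACATCA, 4.46% TGACTCA and 1.47% a CArG box. GC content was 64.4% for Fosl2, 54.4% for Ier3, 58.4% for Fos and 61.2% for Jun, against a median of 52.4% over all windows. The deposited start of Fosl2 lies 671 bases before the RefSeq start, and that of Ier3 29 bases before it. These matches describe the letters of the windows only, and sites further upstream, CArG boxes among them, were not searched.

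JUN-family proteins can pair with each other or with a FOS-family partner, and JUND is the member usually present in resting cells. Jund (ENSMUSG00000071076, chr8:70697739-70700616) reached 61.4, 46.5 and 48.8 CPM in wild type, against 77.7, 80.4 and 77.7 CPM in Acss2-KO. The 3 Acss2-KO values were close together and all above WT. Means were 52.3 ± 7.999 and 78.6 ± 1.58 CPM (SD, n = 3 each). The rise on the log2(CPM + 1) scale was 1.51-fold (log2 fold change 0.59, SE 0.17, limma adjusted p = 0.025). The call was lost without WT-2 (limma adjusted p = 0.11), KO-1 (0.053) or KO-3 (0.085), and with WT-2 and KO-1 both left out (0.18).

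Jun (ENSMUSG00000052684, chr4:95049034-95052222), the founding JUN gene and a target of JNK signalling, reached 108, 51.6 and 64.4 CPM in wild type, against 64.0, 65.3 and 111 CPM in Acss2-KO. Each genotype held 1 high library, WT-1 and KO-3. The log2 fold change was 0.12 (SE 0.31, limma adjusted p = 0.78, 95% confidence interval -0.57 to 0.82), and its sign turned without WT-2 (-0.11) or KO-3 (-0.13). Junb (ENSMUSG00000052837, chr8:84976909-84978748), a weaker activator than JUN in many settings, was at 49.5, 63.6 and 54.2 CPM in wild type, against 48.8, 41.9 and 52.7 CPM in Acss2-KO. The ranges overlapped (log2 fold change -0.22, SE 0.17, limma adjusted p = 0.35, interval -0.61 to 0.18).

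**Figure D2:**
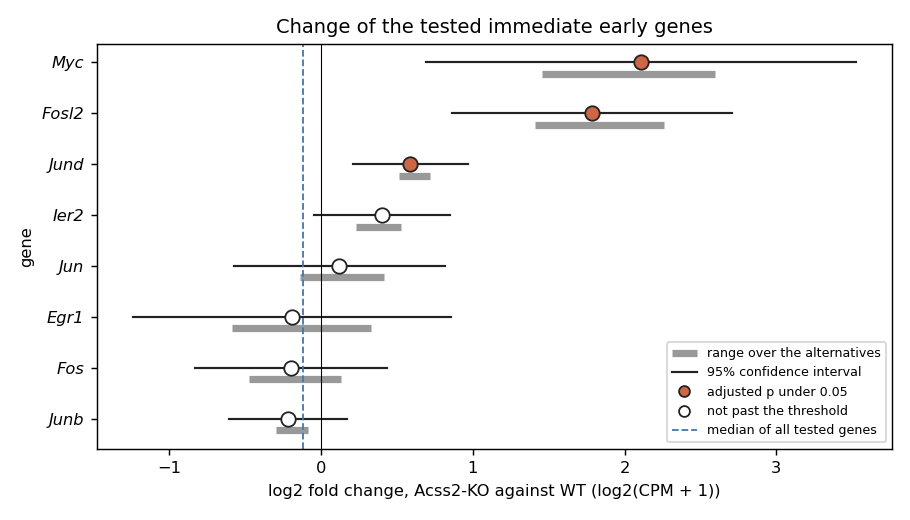
Log2 fold change of the 8 tested members on the log2(CPM + 1) scale, with 95% confidence intervals as black lines and the range over the alternative analyses as grey bars. Myc, Fosl2 and Jund (filled) lie right of 0 throughout, and the ranges of Jun, Egr1 and Fos cross 0.

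Levels of different genes were compared per kb of exon. The summed Fos and Fosl2 level was 4.50, 4.91 and 4.01 CPM per kb in WT and 12.3, 5.32 and 12.3 CPM per kb in Acss2-KO. All Acss2-KO libraries exceeded WT, with replicate 2 only just above. Fosl2 made up 57.8, 34.5 and 39.7% of that sum in WT and 87.1, 67.3 and 73.4% in Acss2-KO. The summed Jun, Junb and Jund level overlapped between genotypes (72.4 ± 8.74 and 78.9 ± 10.5 CPM per kb, SD, n = 3 each, exact permutation p = 0.50, two-sided). Jund made up 23.9 to 25.9% of it in WT and 29.7 to 39.0% in Acss2-KO, and the Junb share was 33.2 to 52.1% and 32.1 to 36.5%. The Fos and Fosl2 sum was 5.18 to 6.78% of all 5 genes in WT and 6.91 to 14.2% in Acss2-KO.

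Differences between members were compared within each library on the log2(CPM + 1) scale. The Fosl2 minus Fos difference was 0.35 to 1.57 in WT and 2.11 to 3.75 in Acss2-KO, and Jund minus Junb was -0.44 to 0.30 and 0.55 to 0.92. Neither pair overlapped between genotypes. Jund minus Jun did overlap (-0.80 to -0.15 and -0.50 to 0.30, exact permutation p = 0.30). With 3 against 3 libraries the two-sided exact permutation test cannot go below 0.10, which is the value for each measure without overlap. After Benjamini-Hochberg adjustment over the 11 family and pair measures that value is 0.157, so none passes. These measures were chosen after the values were seen.

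**Figure D3:**
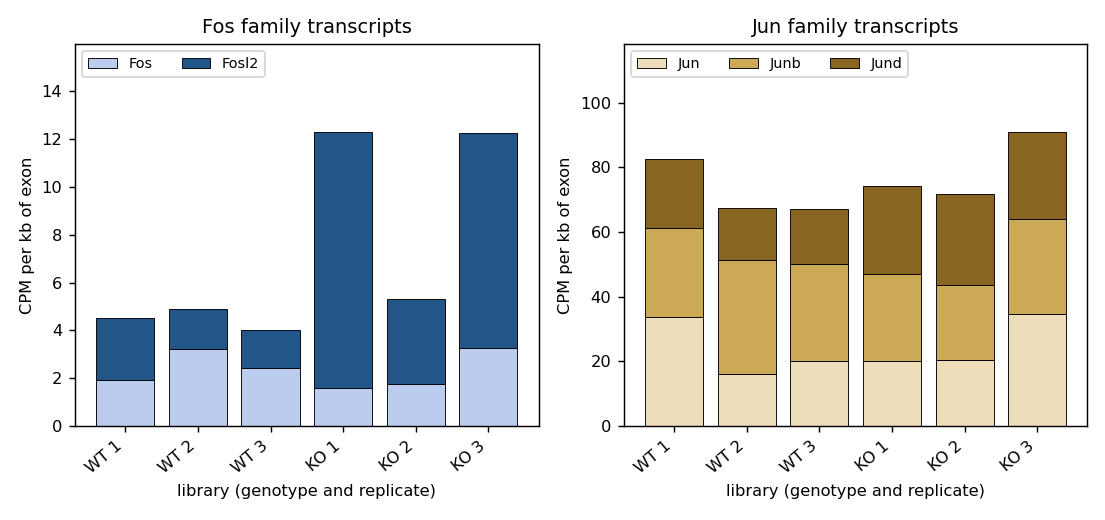
Stacked levels of Fos and Fosl2 (left) and of Jun, Junb and Jund (right) in CPM per kb of exon, 1 bar per library. Fosl2 fills most of the taller left bars of Acss2-KO replicates 1 and 3, and the right bars have similar totals in both genotypes (67.2 to 82.5 in WT, 71.6 to 90.9 in Acss2-KO).

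Myc (ENSMUSG00000022346, chr15:61985341-61990374) had the largest log2 fold change of the tested members. It reached 13.7, 5.31 and 20.3 CPM in wild type, against 66.7, 26.7 and 83.9 CPM in Acss2-KO. All Acss2-KO values lay above WT, though KO-2 exceeded WT-3 by little, and the highest and lowest libraries differed 3.81-fold within WT and 3.14-fold within Acss2-KO. Means were 13.1 ± 7.49 and 59.1 ± 29.3 CPM (SD, n = 3 each). The rise was 4.32-fold on the log2(CPM + 1) scale (log2 fold change 2.11, SE 0.58, limma adjusted p = 0.034). The call was lost without WT-1 (limma adjusted p = 0.097), WT-2 (0.061), KO-1 (0.12) or KO-3 (0.096), and with WT-2 and KO-1 both left out (0.24).

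Egr1 (ENSMUSG00000038418, chr18:34859823-34864984), often induced together with Fos through SRF, reached 66.3, 54.6 and 41.6 CPM in wild type, against 55.3, 22.2 and 81.6 CPM in Acss2-KO. The lowest and the highest value of all 6 libraries were both in Acss2-KO. The log2 fold change was -0.19 (SE 0.45, limma adjusted p = 0.76), and the interval of -1.23 to 0.86 leaves changes of either sign possible. Without KO-2 the log2 fold change was 0.33. The Myc minus Egr1 difference was -2.19, -3.14 and -1.005 in WT and 0.27, 0.26 and 0.04 in Acss2-KO (log2(CPM + 1) scale). This difference varied little among the 3 Acss2-KO libraries, while Myc varied 3.14-fold and Egr1 3.68-fold, both lowest in KO-2. KO-2 was also the lowest for 44.1% of all tested genes and 84.7% of those called higher. The pair is 1 of the 11 measures chosen after the values were seen. It did not pass (exact permutation p = 0.10, 0.157 after Benjamini-Hochberg adjustment).

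Ier3 (ENSMUSG00000003541, chr17:35821684-35822923), also called IEX-1, is a stress and NF-kappaB response gene linked to cell survival. It was listed at 0, the floor of 1 CPM, in WT replicates 2 and 3 and at 1.01 CPM in replicate 1, against 4.82, 2.50 and 5.46 CPM in Acss2-KO. The Acss2-KO values stand for 138, 64 and 119 reads. All 3 lie above the floor, with replicate 2 the lowest. Ier3 missed the minimum mean of 5 CPM and so has no test in the main analysis, and no fold is given against a group at the floor. With no filter it passed (limma adjusted p = 0.0044 over 12366 genes, of which 12% were called higher). The floor hides the spread of Ier3 among the WT libraries, which limits what that p-value shows. Ier2 (ENSMUSG00000053560, chr8:84661331-84662852), a small nuclear response protein, was at 21.4, 23.3 and 15.5 CPM in wild type, against 29.0, 22.5 and 28.2 CPM in Acss2-KO. Only KO-2 lay within the WT range (log2 fold change 0.40, SE 0.20, limma adjusted p = 0.14, interval -0.05 to 0.85).

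The order of levels per kb of exon also differed. In WT it ran Junb (30.9 ± 3.96 CPM per kb), Jun (23.4 ± 9.20), Jund (18.2 ± 2.78), Egr1 (17.5 ± 3.97), Ier2 (13.2 ± 2.68), Myc (4.82 ± 2.76), Fos (2.51 ± 0.664) and Fosl2 (1.96 ± 0.557), with Ier3 at the floor. Neighbours in this order had overlapping ranges, except Ier2 and Myc, and Fosl2 and Ier3. In Acss2-KO it ran Jund (27.3 ± 0.550), Junb (26.5 ± 3.02), Jun (25.1 ± 8.33), Myc (21.8 ± 10.8), Ier2 (17.5 ± 2.36), Egr1 (17.1 ± 9.60), Fosl2 (7.76 ± 3.72), Ier3 (3.77 ± 1.38) and Fos (2.20 ± 0.927). All neighbours in that order overlapped. Myc thus stood below the range of Ier2 in WT and overlapped Jun and Ier2 in Acss2-KO.

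The authors' deposited table gives log2 fold changes of 2.30 for Myc, 2.13 for Fosl2 and 2.31 for Ier3, with adjusted p-values of 3e-08, 3.1e-07 and 4e-07. The deposited WT values of Ier3 lie at or next to the floor. By the authors' deposited table, a share of 12.5% of all genes was higher past an adjusted p of 0.05. The authors' deposited table does not call Jund (0.74, adjusted p = 0.11), Ier2 (0.57, 0.26), Jun (0.25, 0.67), Egr1 (0.11, 0.86), Junb (-0.07, 0.91) or Fos (-0.06, 0.94). Jund is therefore called here and not there. Egr1 has opposite signs, with neither value past its threshold.

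Other immediate early genes showed more rises than falls. Of 37 tested, 16 were higher and 4 lower (43.2 and 10.8%, against 13.4 and 23.1% of all tested genes), with a median log2 fold change of 0.56. This list and those below were chosen with earlier results of these data known, so their shares are descriptive only. Gadd45b, a growth arrest and DNA damage response gene, rose from 9.66 ± 2.63 to 50.8 ± 20.6 CPM (a log2 fold change of 2.24, SE 0.29, limma adjusted p = 0.0012). Csrnp1, a nuclear protein induced by AXIN1, rose from 13.1 ± 0.968 to 42.4 ± 9.53 CPM, and the matricellular gene Ctgf from 8.70 ± 0.265 to 25.4 ± 5.38 CPM. Dusp4 and Dusp6 encode phosphatases that switch off MAP kinases, and they went opposite ways. Dusp4 rose from 4.28 ± 0.808 to 12.4 ± 1.35 CPM, and Dusp6, which acts on ERK, fell from 75.3 ± 30.6 to 12.7 ± 0.695 CPM (a log2 fold change of -2.41, SE 0.26, limma adjusted p = 0.00061). The count of higher genes was 8 without KO-3 and 10 with a minimum mean of 20 CPM. That minimum leaves fewer genes tested in this list and in those below.

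Other bZIP genes related to those of AP-1 moved in both directions, 2 of 12 tested higher and 3 lower, near the shares of all genes, with a median log2 fold change of -0.44. Mafk, a small MAF protein without an activation domain, rose from 19.3 ± 1.28 to 38.9 ± 4.85 CPM. Atf3, a stress-induced repressor that pairs with JUN proteins, rose from 7.12 ± 2.26 to 16.0 ± 5.84 CPM (limma adjusted p = 0.019). Nfe2l1, a regulator of proteasome genes, fell from 186 ± 45.3 to 78.8 ± 2.92 CPM. Maff, another small MAF gene, fell from 18.7 ± 4.59 to 7.94 ± 3.67 CPM (limma adjusted p = 0.015). Atf3 lost its call without WT-1 (0.062), WT-2 (0.060) or KO-3 (0.073), and Maff without WT-1 (0.055). The count of higher genes was 1 without WT-1, WT-2 or KO-3 and with a minimum of 20 CPM. Lower genes numbered 6 without WT-3.

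Upstream genes of the MAP kinase, SRF and CREB routes also split, with 9 of 41 higher and 7 lower (22.0 and 17.1%, against 13.4 and 23.1% of all tested genes, median log2 fold change -0.07). Egfr, the epidermal growth factor receptor, rose from 163 ± 39.4 to 457 ± 109 CPM (a log2 fold change of 1.48, SE 0.26, limma adjusted p = 0.0037). Mapkapk2, the kinase downstream of p38, rose from 82.7 ± 9.12 to 234 ± 66.8 CPM. Map3k1, an upstream kinase of JNK, fell from 12.0 ± 2.45 to 2.07 ± 0.494 CPM (-2.08, SE 0.22, limma adjusted p = 0.00061), and the ERK-activated kinase gene Rps6ka1 from 17.3 ± 5.12 to 5.23 ± 1.26 CPM. Among SRF and CREB factors and their partners, some passed the test and others did not. The SRF partner gene Elk4 (log2 fold change 1.07, limma adjusted p = 0.0092) and the CREB coactivator gene Crtc2 (0.88, 0.0094) rose, and Elk3 fell (-1.12, 0.010). These 3 were singled out after their values were seen, and Crtc2 lost its call with WT-2 and KO-1 both left out (0.057). Srf, Elk1, Creb1 and Mapk8 did not pass. Log2 fold changes were 0.22 for Srf, -0.18 for its partner Elk1 and -0.10 for Creb1, and 0.27 for Mapk8, which encodes the JUN kinase JNK1 (limma adjusted p between 0.21 and 0.66). Higher genes numbered 5 without WT-3 or KO-3, and 4 with WT-2 and KO-1 both left out. Lower genes numbered 4 without WT-1, WT-2, KO-1 or KO-3, and with both of those libraries left out. With a minimum of 20 CPM they numbered 3.

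Genes that restrain or degrade the members' products counted 5 of 17 higher and 1 lower (29.4 and 5.88%, against 13.4 and 23.1% of all tested genes, median log2 fold change -0.06). Spry1, an inhibitor of receptor tyrosine kinase signalling, rose from 5.83 ± 0.564 to 14.4 ± 3.90 CPM, and the MAP kinase phosphatase gene Dusp8 from 3.30 ± 0.641 to 8.68 ± 2.91 CPM. Rfwd2 encodes COP1, a ubiquitin ligase that targets JUN, and fell from 48.4 ± 4.87 to 27.4 ± 4.06 CPM (a log2 fold change of -0.80, SE 0.17, limma adjusted p = 0.0087). Dusp10 (0.69, limma adjusted p = 0.038) and the deacetylase gene Sirt1 (0.71, limma adjusted p = 0.034) passed at the edge. Dusp10 lost its call without any single WT replicate (0.074 to 0.11). Sirt1 lost its call without WT-2 (0.11), WT-3 (0.083), KO-1 (0.099) or KO-3 (0.11), and with WT-2 and KO-1 both left out (0.26). Nab1 and Nab2, corepressors that bind EGR1, were at -0.06 and -0.27, and Fbxw7, the ligase that degrades MYC and JUN, at -0.15 (limma adjusted p between 0.31 and 0.81). The count of higher genes fell to 3 without WT-1 or KO-1, to 2 without WT-2 or WT-3, and to 1 without KO-3. It was also 1 with a minimum of 20 CPM, which removes Spry1, Dusp8, Dusp10 and Sirt1 from the test. Lower genes numbered 3 without WT-3.

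**Figure D4:**
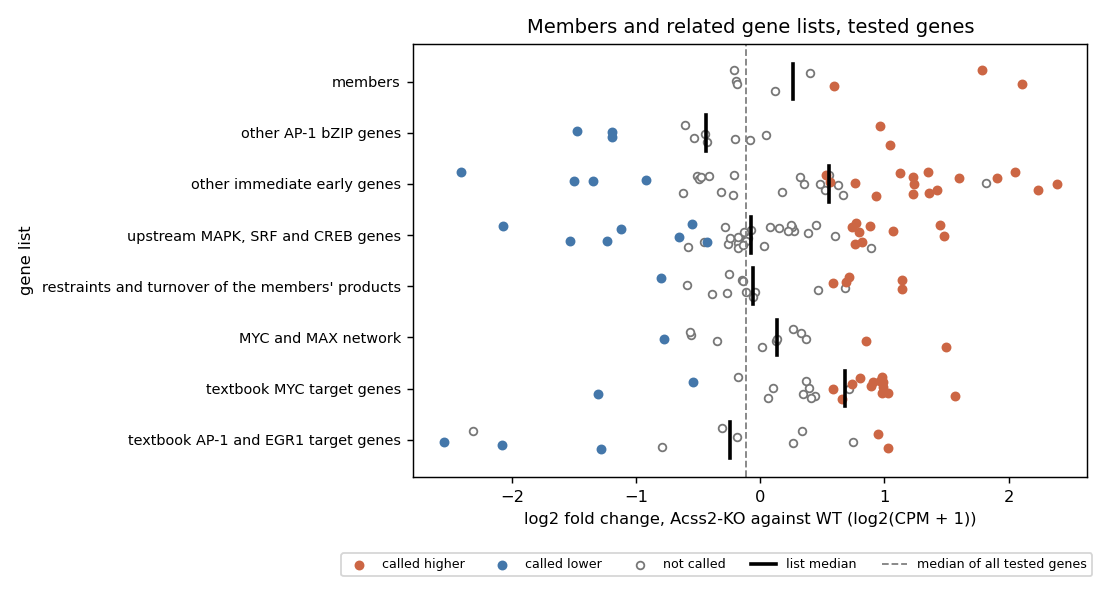
Log2 fold change of each tested gene in the members and in 7 related lists, with called genes filled, list medians as black bars and the median of all tested genes dashed. Other immediate early genes and MYC target genes have the highest medians, 0.56 and 0.69. The lists of other AP-1 bZIP genes and of AP-1 and EGR1 targets have the lowest medians, -0.44 and -0.25, and each holds genes called higher.

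Within the MYC and MAX network 2 of 12 genes were higher and 1 lower (16.7 and 8.33%, against 13.4 and 23.1% of all tested genes), with a median log2 fold change of 0.13. Max, the obligate partner of MYC, was at 18.9 ± 1.65 and 21.7 ± 7.84 CPM (a log2 fold change of 0.13, limma adjusted p = 0.73). Mnt, a MAX partner that opposes MYC, rose from 14.7 ± 1.17 to 27.3 ± 3.29 CPM (0.85, SE 0.16, limma adjusted p = 0.0056). Mlxip, which encodes the glucose sensor MondoA, rose from 14.7 ± 1.94 to 44.5 ± 12.9 CPM. Mlxipl, which encodes the carbohydrate response factor ChREBP, fell from 229 ± 81.3 to 129 ± 16.4 CPM (-0.78, SE 0.26, limma adjusted p = 0.042). The Mlxipl call was lost with each other scaling (0.063 to 0.091), without WT-1 (0.14) or WT-3 (0.071) and without KO-1 (0.054), KO-2 (0.061) or KO-3 (0.15). The lower count was therefore 0 under each other scaling, and also without WT-1, KO-1 or KO-3. It was 2 with a pseudocount of 5.

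Textbook MYC targets were higher for 13 of 24 genes and lower for 2 (54.2 and 8.33%, against 13.4 and 23.1% of all tested genes), with a median log2 fold change of 0.69. This list, too, was chosen with earlier results of these data known, so its shares are no independent support for a change in MYC. Most of the targets named below work in ribosome production. Ppan rose from 11.2 ± 1.57 to 35.6 ± 8.08 CPM (1.57, SE 0.20, limma adjusted p = 0.0013), Nop56, a snoRNP core protein gene, from 13.9 ± 0.338 to 28.8 ± 5.97 CPM, Nolc1 from 21.3 ± 4.22 to 43.0 ± 7.07 CPM and Wdr43 from 24.4 ± 1.98 to 52.0 ± 14.5 CPM. The cyclin gene Ccnd2 went the other way, from 9.24 ± 2.17 to 3.08 ± 0.292 CPM (-1.31, SE 0.20, limma adjusted p = 0.0026). Higher genes numbered 6 without KO-3 and 7 with WT-2 and KO-1 both left out. The lower count was 1, not 2, under all alternatives but the pseudocount of 0.5, limma without the robust and trend options and the log2 values as deposited.

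Textbook targets of AP-1 and EGR1 counted 2 of 12 higher and 3 lower, near the shares of all genes, with a median log2 fold change of -0.25. The cyclin D1 gene Ccnd1 fell from 47.6 ± 32.5 to 6.37 ± 2.23 CPM (-2.55, SE 0.49, limma adjusted p = 0.0088), and Spp1, which encodes osteopontin and also marks cholangiocytes, from 30.9 ± 1.70 to 6.55 ± 0.400 CPM. Sox9, the other cholangiocyte marker tested, was higher (3.22 CPM in WT and 9.52 CPM in Acss2-KO). Cd44, the hyaluronan receptor gene, fell (-1.29, limma adjusted p = 0.020). The adhesion molecule gene Icam1 rose from 14.4 ± 4.21 to 30.1 ± 6.45 CPM, and F3, the tissue factor gene, from 3.44 ± 0.717 to 8.03 ± 3.97 CPM. F3 lost its call without any single WT replicate (limma adjusted p = 0.057 to 0.13) or KO-3 (0.075), and Cd44 without WT-3 (0.057) or KO-3 (0.074). The higher count was 1 without WT-1, WT-3, KO-1 or KO-3, and with a minimum of 20 CPM.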

How the data were processed

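The authors deposited 1 value per gene and library, log2 CPM rounded to 2 decimals, with values below 1 CPM listed at 0, as the values show. The submitters' processing notes name Bowtie 0.12.2 and the build mm8 without saying their use. How reads were counted, and the tool behind the authors' deposited fold changes (log2), p-values and their adjustment, was not given in the sources used here. Deposited coordinates are printed as GRCm38.

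A listed 0 was set to 1 CPM. Genes whose mean reached 5 CPM were tested on log2(CPM + 1), which understates the change of low genes, with limma 3.58.1 in R 4.3.3 (statmod 1.5.0, robust, mean-variance trend) and Benjamini-Hochberg adjustment over all 9355 genes. Whole reads could not be recovered from rounded log2 values, so no count model was used; depth was estimated from the steps between low values, and the procedures were tested on simulated data. Exon lengths came from GENCODE M1 and promoters from RefSeq.

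The members and gene lists were chosen with earlier results of these data known. Members are always named; each list gives up to 5 genes past the threshold by smallest p, plus genes that act directly on a member's product. Some genes that this rule would name are not reported here. By the labels, samples that share a replicate number share only that number.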

Additional observations from a re-analysis of the deposited data

How the results depend on the processing

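Of the 3 members called higher, none was called without WT-2 or with WT-2 and KO-1 both left out (0), and 1 was called without KO-1 or KO-3, so leaving out 1 library gave 0 to 3 calls; the cause was not tested. No alternative called a member lower. Among members short of the threshold, the sign turned for Fos under quantile normalization (0.039) and with both of those libraries left out (0.13), for Jun without WT-2 (-0.11) or KO-3 (-0.13), and for Egr1 without KO-2 (0.33). Leaving out 1 library gave -0.13 to 0.42 for Jun and -0.59 to 0.33 for Egr1. Over all tested genes, 1252 higher calls became 519 to 1608 and 2161 lower calls 1239 to 2420 on leaving out 1 library. They became 715 and 1319 with both of those libraries left out, and 741 and 1112 with a minimum of 20 CPM, where fewer genes are tested. Median-of-ratios, upper-quartile, trimmed-mean and quantile scaling moved the median over the tested genes from -0.12 to between -0.03 and 0.02, and turned no member but Fos. Under these scalings Ier2 was at 0.49 to 0.53, with a limma adjusted p of 0.051 to 0.055. With the replicate block, 3 members were called higher, as without it. Limma adjusted p-values with and without the block were 4.4e-05 and 0.034 for Myc, 0.0010 and 0.012 for Fosl2, and 0.040 and 0.025 for Jund. Dusp10 lost its call with the block (limma adjusted p = 0.055), and the MYC and MAX network had 2 lower genes in place of 1. Deviations of libraries with the same number correlated at -0.10, -0.14 and 0.09, so they were not taken as pairs. Of 39 genes beside the members that were taken through the alternatives, 30 kept direction and call wherever tested, and 9 lost the call at least once. The log2 values as deposited, without a pseudocount, were an alternative chosen after seeing the data. Genes near 1 CPM, such as Ier3 in WT, are limited by the floor of the table.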
